A study of Tursiops truncatus with 76 samples.

Results

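The cytosolic ribosomal protein genes were examined in whole blood of common bottlenose dolphins (Tursiops truncatus) from Barataria Bay, Louisiana (BAR) and Sarasota Bay, Florida (SAR). A locus was taken as a member where the study's gene tables paired it with a symbol of the RPL or RPS series followed by a number, or with RPSA, RPLP0, RPLP1 or RPLP2, and the RPS6K kinases were left out. This gave 88 of the 24094 loci in the expression table, which carried 75 symbols, 45 of the large subunit (52 loci) and 30 of the small subunit (36 loci). The study's tables named 3144 loci from these same samples, as members of co-expression modules or as differing genes, so the choice of members was not independent of their expression. Of a standard mammalian set of 79 ribosomal proteins, 71 were among the member symbols. FAU, which encodes a ribosomal protein fused to a ubiquitin-like protein, was kept in a separate list. RPL5, RPL27, RPL29, RPL41, RPS15 and RPS28 were not named in those tables and were not analysed here. The other 4 member symbols were the paralogs RPL10L, RPL22L1, RPL36AL and RPS27L.

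Free-ranging animals were caught for health assessments and bled once per capture into PAXgene tubes, which preserve the RNA of all blood cells. BAR, which was oiled after the Deepwater Horizon spill, gave 60 samples from 55 animals, 12 in each of the June 2013, June 2014, June 2017, September 2017 and July 2018 campaigns. SAR, set against it as a bay without that oiling, gave 16 samples, 8 of May 2014 and 8 of May 2016. Across both sites there were 71 animals, 5 of them sampled 2 times. Within BAR, 46 samples came from animals born before the spill (pre-spill) and 9 from animals born after it (post-spill), 23 came from adults, 33 from subadults and 4 from calves, 40 from females and 20 from males, and 20 from pregnant and 15 from non-pregnant females. SAR gave 11 samples of adults and 5 of subadults, 8 of females and 8 of males. Site, date and sex came from the deposited labels, and cohort, age, pregnancy and health from the study's own sample table. Apart from 2014 no year was sampled at both sites, and the months differed, so site, season and campaign cannot be told apart outside that year.

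Each ribosome has a large subunit, which joins amino acids, and a small subunit, which reads the messenger RNA, and each holds ribosomal RNA and a fixed set of proteins. The mRNAs of these proteins are among the most abundant in most cells, carry a terminal oligopyrimidine (TOP) tract at their start and are translated together according to growth signals. In mammalian blood, mature red cells have lost their ribosomes, while reticulocytes, the newly released red cells, still carry ribosomes and mRNA. White cells supply the rest.

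Levels were given as FPKM, the fragments mapped to a transcript divided by its length and by the library's mapped reads, which allows genes of different length to be compared. All 88 members were expressed, none had a value of 0 in any library, and 48 of the 133 loci with a mean above 1000 FPKM were members, as were 39 of the 100 loci with the highest means. RPS2, a protein at the mRNA entry side of the small subunit, had the highest mean (11630 ± 4376 FPKM, SD, n = 76), followed by RPL12-a (10010 ± 3714), RPS7 (8637 ± 2979), RPS29 (7128 ± 2361) and RPL27A (6397 ± 1969). RPL39 (47.8 ± 28.8 FPKM), RPL18 (32.6 ± 16.2), RPLP2-b (30.5 ± 21.7), RPSA-b (26.5 ± 12.5) and RPS19 (14.3 ± 9.43) were the lowest. The RPL18, RPLP2-b and RPS19 loci span only 647, 427 and 708 bases. Whether these are the main loci of their genes was not examined, so the values are levels of loci. Letters after a symbol mark loci of the same symbol in order of falling mean. The SD of a member over the 76 libraries, on the log2(FPKM + 1) scale, was 0.34 for RPL4 at the steady end and 1.12 for RPLP2-b at the other. The first principal component of the members took 62.7% of their variance, and all 88 members had loadings of 1 sign on it.

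The libraries' summed FPKM ran between 425820 and 1219800. The lowest, a BAR sample of July 2018, stood apart and results that moved without it are given with both values. Read totals were not in the files, and a relative depth read off the steps between low FPKM values was 0.548 to 1.51 times the median in 75 libraries. A list of red cell and reticulocyte markers was at a summed 8292 to 65430 FPKM in BAR (median 33210) and 25880 to 71650 in SAR (median 46840), with no locus of its 22 named of 28 at 0 in any library. Markers of white cells and platelets were present too, and 1 locus of the eosinophil and basophil list was at 0 in some libraries.

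Ribosomal protein mRNAs were lower in BAR than in SAR. Of the 88 members, 50 were lower in BAR and 0 higher at an adjusted p of at most 0.05 (limma with Benjamini-Hochberg adjustment over 11485 loci), and 52 (59.1%) had an unadjusted p under 0.05, against 75.8% of all loci. The background went the other way: 2.54% of all loci tested were called lower in BAR and 70.4% higher. Differences were negative in 84 members, with a median log2 difference of -0.35, against 0.39 over all loci. The members held 17.6 ± 3.34% of a library's summed FPKM in BAR (10.3 to 25.3%, n = 60) and 22.2 ± 3.89% in SAR (14.1 to 29.1%, n = 16). Every member's BAR and SAR ranges overlapped, as they did for all loci tested.

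**Figure D1:**
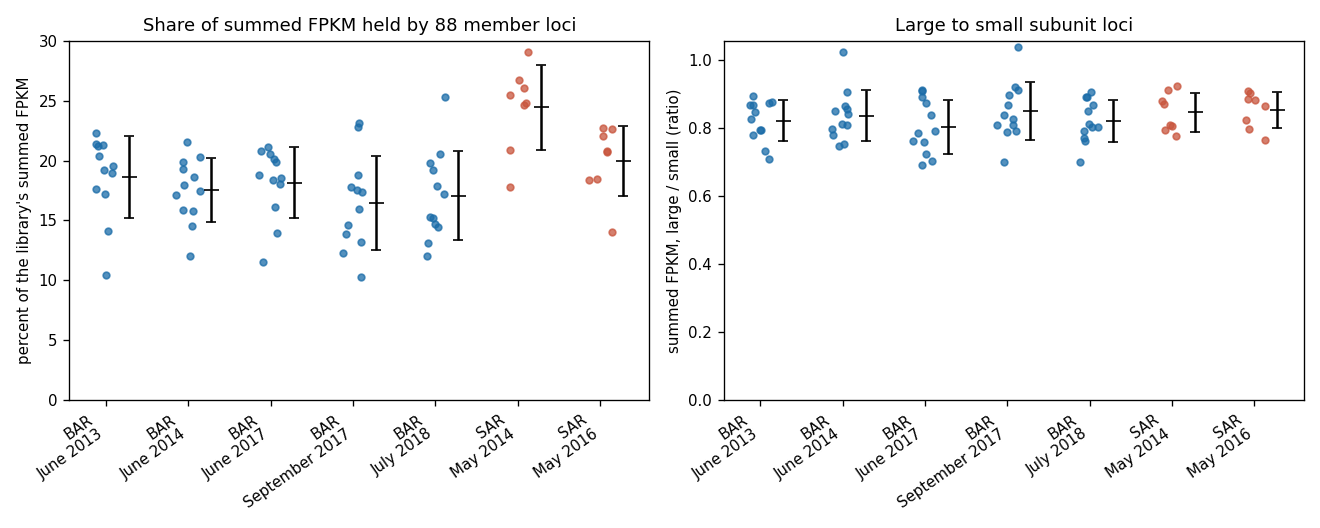
Percent of each library's summed FPKM held by the 88 ribosomal protein loci (left) and ratio of summed FPKM of large to small subunit loci (right), by campaign. Points are samples, bars the mean ± SD of 12 samples per BAR campaign and 8 per SAR campaign. SAR May 2014 had the highest mean share, 24.4%, while the ratio lay between 0.693 and 1.04 in all 76 libraries.

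RPS25, a small subunit protein needed for initiation at some viral internal entry sites, ran at 342, 1149 and 3444 FPKM in the lowest, median and highest BAR sample and at 885, 1770 and 3370 in SAR (log2 difference -0.71 ± 0.19, limma adjusted p = 0.0012). It overlaps TRAPPC4 by 326 bases, and whether strand was used in counting is not given in the sources used here. The highest samples of both sites were at a similar level, while the lowest and median samples were lower in BAR.

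RPL12, at the base of the stalk where elongation factors bind, had 2 loci and both were lower in BAR. The abundant locus RPL12-a ran at 4321, 9201 and 16230 FPKM in BAR and at 7631, 13430 and 21270 in SAR (log2 difference -0.63 ± 0.14, limma adjusted p = 0.00018). RPL12-b ran at 70.6, 268 and 727 FPKM in BAR and at 181, 432 and 860 in SAR (-0.65 ± 0.19, limma adjusted p = 0.0027). The levels of the loci were far apart, while their differences between the sites lay within 1 SE of each other.

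RPL39, RPS27A, RPL24, RPL37 and RPL36A also had large negative differences. RPL39 and RPL36A were in the study's own list of genes that differ between the sites, as were RPL12-b and RPL23-b. The site differences of these loci are no independent evidence. RPL39, a small protein of the peptide exit tunnel, had medians of 38.9 FPKM in BAR and 63.7 in SAR (log2 difference -0.64, limma adjusted p = 0.0081). RPS27A, made as a fusion with ubiquitin, had medians of 1943 FPKM in BAR and 2739 in SAR (-0.60, limma adjusted p = 0.0023). RPL24, which reaches across to the small subunit, had medians of 2739 FPKM in BAR and 3931 in SAR (-0.58, limma adjusted p = 0.00017). All 5 medians were lower in BAR, and those of RPL37 were 2094 FPKM in BAR and 2984 in SAR (-0.58) and of RPL36A 63.6 and 98.4 (-0.57).

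**Figure D2:**
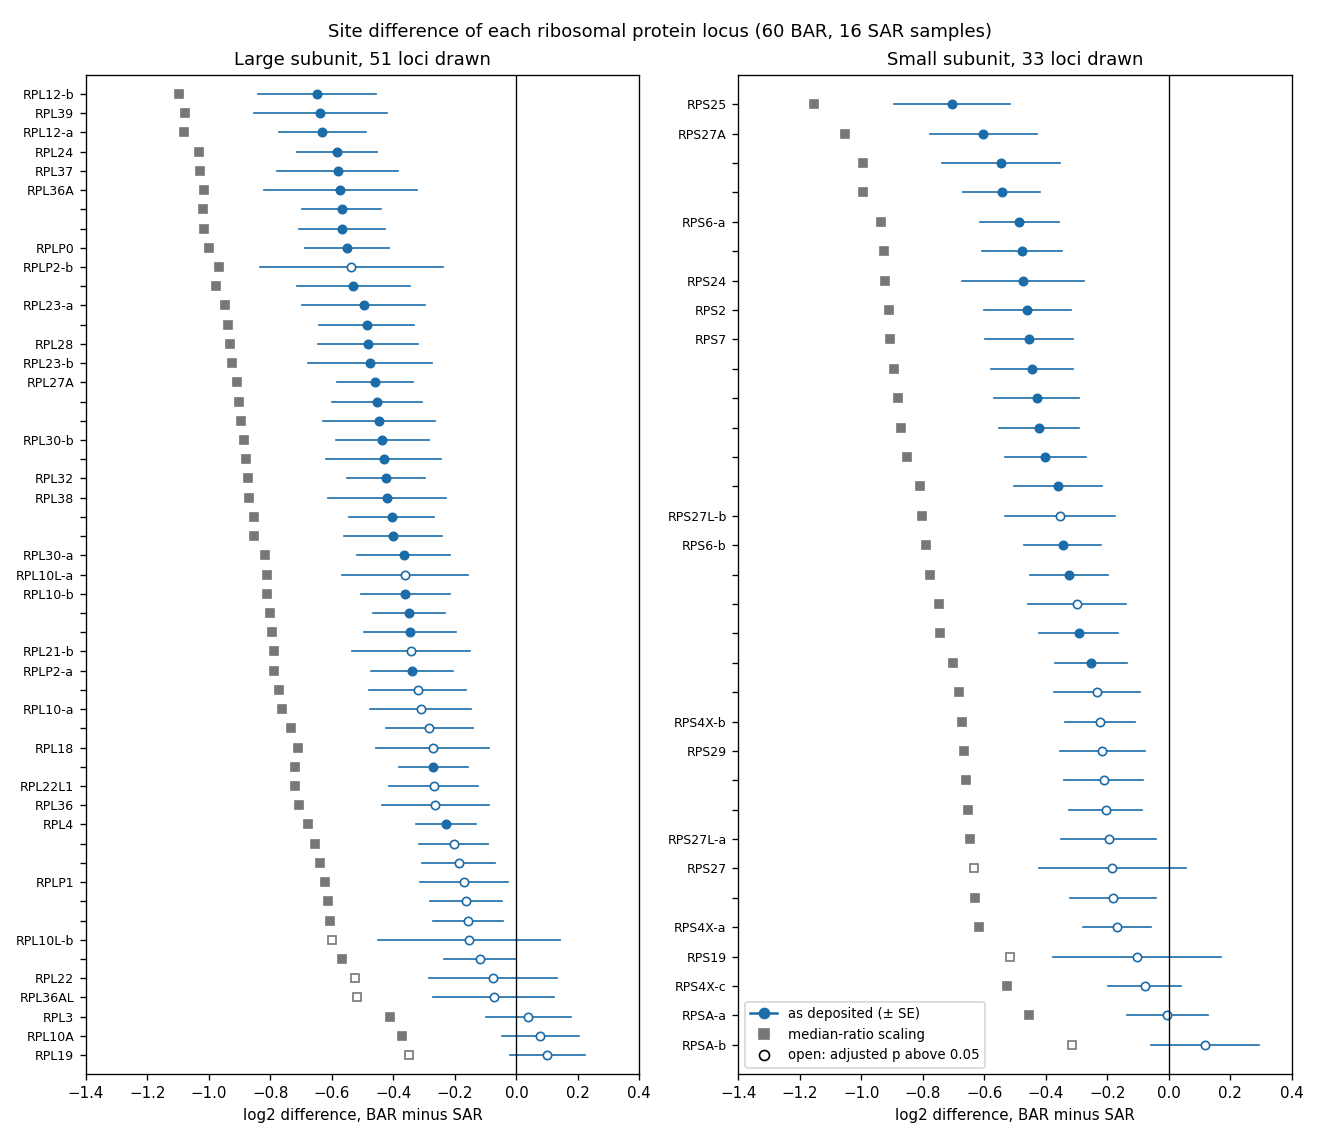
Log2 difference in FPKM + 1, BAR minus SAR, of each ribosomal protein locus, for the large subunit (left, 51 loci drawn) and the small subunit (right, 33 loci drawn). Circles with bars are the values as deposited ± SE, squares the values after median-ratio scaling, and open symbols have an adjusted p above 0.05. Loci named in the text are labelled, 84 of the 88 loci are drawn, and all squares are negative.

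Some members had differences near or above 0. RPSA, the laminin receptor precursor that sits at the small subunit's head, was at 605, 1442 and 2870 FPKM in the lowest, median and highest BAR sample for RPSA-a and at 917, 1427 and 3477 in SAR (log2 difference -0.005 ± 0.13). RPL3, near the centre that joins amino acids, had medians of 553 FPKM in BAR and 558 in SAR (0.04), RPL10A medians of 1974 in BAR and 1993 in SAR (0.08), and RPL19 medians of 1208 in BAR and 1159 in SAR (0.10). RPL3, RPL10A and RPL19 were picked after their values were seen. None of these differences passed the test. With median-ratio scaling, which sets the median of all loci level between libraries (0.01 in place of 0.39), these 4 loci were negative as well, at -0.45 for RPSA-a, -0.41 for RPL3, -0.37 for RPL10A and -0.35 for RPL19.

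The number of calls depended on the scaling and on 1 campaign of SAR. With median-ratio scaling 81 members were lower in BAR, beside 5.65% of all loci, and the median difference was -0.80. With quantile normalization 30 were, beside 4.07%, and 27 of those were also called in the values as deposited. With only the 8 SAR samples of May 2016 as reference, a choice made after seeing the data, 0 members passed in the values as deposited and 0 after median-ratio scaling. By limma 4 (4.55%) and 39 (44.3%) members had an unadjusted p under 0.05, against 26.9% and 11.9% of all loci. The median differences of the members were -0.11 and -0.36. All loci lost calls there too, with 3 of 11557 called lower and 234 higher. RPL36A then had a difference of 0.03.

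Of the markers of blood cells, 13 of the 22 red cell loci were lower and 1 higher in BAR. All 4 named T cell loci, of 19 listed markers, were higher, with summed medians of 263 FPKM in BAR and 171 in SAR. Of the monocyte loci 3 of 4 were higher, with summed medians of 12370 FPKM in BAR and 8894 in SAR, and of the eosinophil and basophil loci 4 of 6, beside 70.4% of all loci. Only 1 of 5 B cell, 1 of 6 neutrophil and 1 of 5 platelet loci were higher, and 0 were lower. With median-ratio scaling 18 red cell loci were lower, and 0 loci of the other lists were called. The part of these cells in the ribosomal protein difference was not tested. In whole blood, fewer cells of a type and less RNA per cell cannot be told apart.

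Both subunits were lower in BAR. Of the 52 large subunit loci 31 were lower in BAR, with a median log2 difference of -0.36, and of the 36 small subunit loci 19 were, with a median of -0.32, and the subunits were not tested against each other. The summed FPKM of the large subunit loci was 0.828 ± 0.072 times that of the small subunit loci in BAR (n = 60) and 0.851 ± 0.053 times in SAR (n = 16), and the highest value, 1.04, and the lowest, 0.693, were both in BAR. Median levels were 987 FPKM for large and 1535 FPKM for small subunit loci, and since some proteins are counted at several loci, these sums are not a subunit stoichiometry. Of the more abundant 44 members 33 were called and of the others 17, but 15 of each with quantile normalization. Of the 21 loci spanning under 1000 bases 10 were called, and of the 67 longer ones 40. Of the 75 members outside the study's own list of genes that differ between the sites, 46 were called. Neither these nor the members of that list are independent evidence, since all were named in gene tables made from these same samples.

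The 4 members named only in that site list were low and variable, and all 4 are loci spanning under 1000 bases. RPLP2-b had medians of 25.5 FPKM in BAR and 30.06 in SAR (log2 difference -0.54 ± 0.30, limma adjusted p = 0.097). RPL18 had medians of 29.2 FPKM in BAR and 35.2 in SAR (-0.27), RPL36 of 65.2 in BAR and 90.7 in SAR (-0.26) and RPS19 of 10.6 in BAR and 15.2 in SAR (-0.10). None passed the test in the values as deposited.

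The lateral stalk of the large subunit, which recruits the factors of elongation, is built from RPLP0 as anchor and RPLP1 and RPLP2 as paired arms, and its loci are given one by one. RPLP0 was at 1191, 3175 and 5168 FPKM in the lowest, median and highest BAR sample and at 2506, 4149 and 9688 in SAR (log2 difference -0.55 ± 0.14, limma adjusted p = 0.00054). RPLP1 was at 317, 816 and 1653 FPKM in BAR and at 537, 826 and 1737 in SAR (-0.17 ± 0.14, limma adjusted p = 0.27). RPLP2-a was at 213, 505 and 1025 FPKM in BAR and at 309, 626 and 987 in SAR (-0.34 ± 0.13, limma adjusted p = 0.020). The anchor and 1 locus of the arms were lower in BAR and RPLP1 did not pass, though the difference between these differences was not tested.

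In 2014 both sites were sampled within weeks of each other, BAR in June (n = 12) and SAR in May (n = 8). Of the 88 members, 46 were lower in BAR and 0 higher (limma, 50 or 56.8% at an unadjusted p under 0.05, against 75.2% of all loci), beside 2.58% of all 11423 loci lower and 70.1% higher. The median log2 difference was -0.48 over the members and 0.67 over all loci. The calls took in 28 of 52 large and 18 of 36 small subunit loci, and 44 members were called both in this comparison and in that of all samples, which share these 20 libraries. With median-ratio scaling 82 were lower, beside 7.2% of all loci, and with quantile normalization 15, beside 490 of all 11423 loci.

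RPS2 was the only member whose ranges did not overlap in 2014, where 8.12% of all loci did not. Its FPKM was 6893, 11290 and 12630 in the lowest, median and highest BAR sample and 13140, 16190 and 34150 in SAR (log2 difference -0.82 ± 0.20, limma adjusted p = 0.0013). RPL12-b ran at 70.6, 288 and 525.8 FPKM in BAR and at 363, 562 and 860 in SAR (-1.09 ± 0.32, limma adjusted p = 0.0048). RPL36A ran at 27.7, 75.7 and 177 FPKM in BAR and at 78.8, 140 and 325 in SAR (-1.07 ± 0.33, limma adjusted p = 0.0069). In each of these 3 the lowest SAR sample lay above the BAR median.

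Further members called in 2014 with large negative log2 differences were RPL12-a (-0.97), RPS25 (-0.87), RPLP0 (-0.82), RPL28 (-0.81) and RPL18 (-0.79). RPLP2-b had the most negative difference of all (-1.14 ± 0.51) but its limma adjusted p was just above the threshold. The most positive was RPL10A at 0.19 ± 0.16 (limma adjusted p = 0.26). In the same samples the red cell markers summed to a median of 32380 FPKM in BAR June 2014 and 53790 in SAR May 2014. With median-ratio scaling 20 of 22 red cell, 4 of 5 platelet and 2 of 6 neutrophil loci were lower, beside 7.2% of all loci. In that setting 1 of 4 T cell loci was higher. The part of these cells in the difference was not tested.

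The 2 SAR campaigns differed from each other. Of the members 10 were lower in SAR May 2016 than in SAR May 2014 and 0 higher (limma, 32 or 36.4% at an unadjusted p under 0.05, against 35.7% of all loci), beside 1.16% of 11059 loci lower and 16.0% higher. Differences were negative in 86 members, with a median log2 difference of -0.43, against 0.32 over all loci. The members' share of summed FPKM was 20.0 ± 2.923% in May 2016 and 24.4 ± 3.54% in May 2014 (SD, n = 8 each). With median-ratio scaling 16 were lower, beside 2.37% of all loci. The 10 calls were lost with quantile normalization and without the filter on low values.

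RPL36A, an X-linked gene in human, was at 23.9, 57.7 and 145 FPKM in the lowest, median and highest SAR sample of 2016 and at 78.8, 140 and 325 in 2014 (log2 difference -1.21 ± 0.34, limma adjusted p = 0.025). RPL23, at the face of the large subunit that meets the small one, had 2 loci called. RPL23-a was at 196, 613 and 716 FPKM in 2016 and at 411, 1130 and 1927 in 2014 (-1.104 ± 0.31, limma adjusted p = 0.024). RPL23-b was at 51.5, 146 and 221 FPKM in 2016 and at 84.97, 285 and 438 in 2014 (-0.99 ± 0.34, limma adjusted p = 0.047). The medians of 2014 were above the highest sample of 2016 at RPL23-a and RPL23-b, and all ranges overlapped.

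The other called members were RPLP2-b (-1.15), RPL18 (-0.97), RPS24 (-0.97), RPL36AL (-0.86), RPS27A (-0.76), RPL12-b (-0.74) and RPS7 (-0.69). RPS24 and RPS7 are both among the genes mutated in human Diamond-Blackfan anemia. RPS7, one of the most abundant members, was at 4921, 9059 and 11560 FPKM in 2016 and at 9420, 14000 and 17140 in 2014. Red cell markers summed to a median of 38210 FPKM in SAR May 2016 and 53790 in SAR May 2014, and their part was not tested.

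The 12 symbols with several loci accounted for 25 loci, and whether reads were shared between near-identical copies is not given in the sources used here, so the split between copies is uncertain. The copies lie on different scaffolds of the Tur_tru v1 assembly. RPS4X, whose human gene is X-linked and has a Y-linked counterpart, had 3 loci, RPS4X-a on scaffold NW_017842858.1 (1567267 to 1568165), RPS4X-b on NW_017842989.1 (431375 to 437315) and RPS4X-c on NW_017843245.1 (7708718 to 7709507). RPSA-a spanned 13116 bases of NW_017844023.1 (3416634 to 3429749) and RPSA-b 4661 bases of NW_017842989.1 (23758117 to 23762777). Of the copies in several loci 11 of 25 were lower in BAR, and of the members with 1 locus 39 of 63 were.

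The less abundant locus of each symbol kept a similar share of the pair at both sites. RPS4X-b held a median 47.7% of the FPKM of RPS4X-a and RPS4X-b together in BAR and 47.8% in SAR, and exceeded RPS4X-a in 20 of 76 libraries. RPL10-b held 39.2% in BAR and 40.6% in SAR, RPS27L-b 33.6% in BAR and 35.6% in SAR, RPL10L-b 31.7% in BAR and 27.5% in SAR, and RPL30-b 22.2% in BAR and 23.4% in SAR. RPL23-b held 20.4% in BAR and 20.2% in SAR. RPLP2-b, RPL21-b, RPS6-b, RPL12-b and RPSA-b held medians of 1.49% to 5.27% at either site. No second locus but RPS4X-b exceeded its partner in any library.

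**Figure D3:**
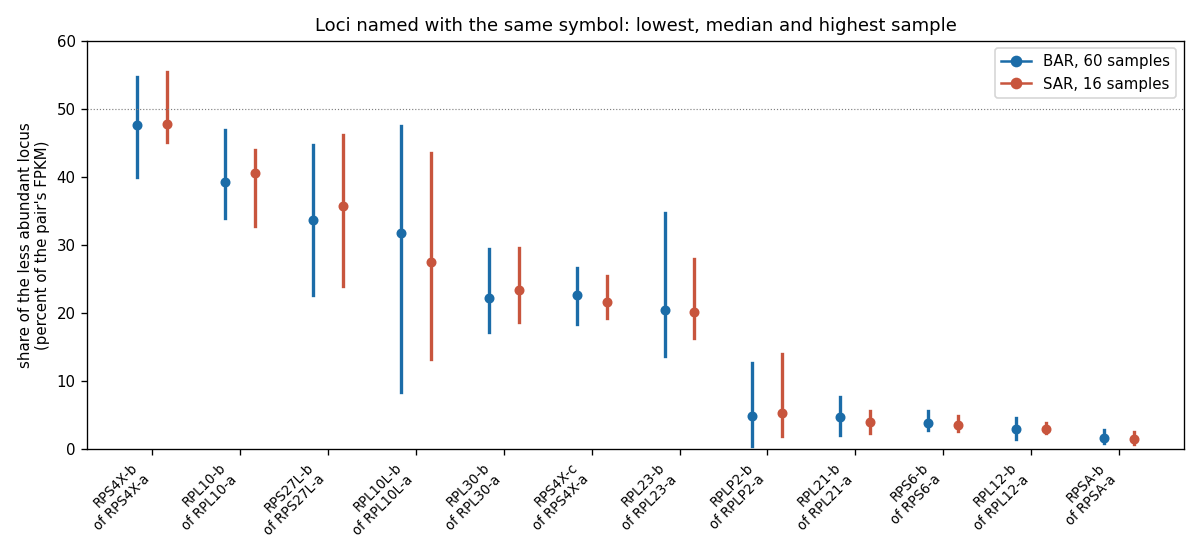
Share of the less abundant locus in the summed FPKM of 2 loci with the same symbol, in percent, for 60 BAR and 16 SAR samples. Points are medians and lines run from the lowest to the highest sample. RPS4X-b sits near 47.7% in BAR and 47.8% in SAR, and the ranges of both sites overlap in every pair drawn.

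Among the copies of RPL30, RPS6, RPL23, RPL10 and RPS4X, differences between the sites were close. Those of the RPLP2 loci lay further apart and those of the RPSA loci had opposite signs. Copies were not tested against each other. RPL30-a, with 4555 FPKM in the median BAR and 5881 in the median SAR sample, differed by -0.37 and RPL30-b, with 1352 in BAR and 1723 in SAR, by -0.44 on the log2 scale, both called. RPS6, the small subunit protein that S6 kinases phosphorylate, differed by -0.49 at RPS6-a (medians 1932 FPKM in BAR and 2627 in SAR) and by -0.35 at RPS6-b (78.0 in BAR and 92.1 in SAR), both called. RPL23-a and RPL23-b were called as well, at -0.50 and -0.48. RPL10, needed for the last step of large subunit maturation, was called at RPL10-b (-0.36) and not at RPL10-a (-0.31), though the 2 values lie within 1 SE of each other. RPS4X-a (-0.17), RPS4X-b (-0.22) and RPS4X-c (-0.08) were not called.

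Paralogs with their own symbols were set side by side in the same way. RPL36AL, a close relative of RPL36A, held 50.09 ± 13.0% of the pair's FPKM in BAR (n = 60) and 41.9 ± 9.61% in SAR (n = 16). In 2014 it held 57.7 ± 11.4% in BAR (39.9 to 79.8%) and 39.3 ± 11.3% in SAR (18.2 to 54.2%), and the ranges overlapped. RPL22L1, which can stand in for RPL22 in mouse, held 55.5 ± 7.79% of that pair in BAR and 58.7 ± 8.43% in SAR. RPS27L-a held 61.2 ± 7.55% against RPS27 in BAR and 61.3 ± 9.69% in SAR. RPL10L-a, a copy of RPL10 known from testis in human and mouse, held 16.2 ± 3.143% beside RPL10-a in BAR and 16.8 ± 3.84% in SAR.

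Within BAR, no member differed over the 5 campaigns by limma's F test at an adjusted p of at most 0.05, beside 0.181% of 11582 loci, and 23 of 88 had an unadjusted p under 0.05, against 14.5% of all loci. RPL36AL came nearest, with a limma adjusted p of 0.069. Of the 10 pairs of campaigns only June 2017 against June 2014 gave a call, RPL36AL, beside 1.67% of all loci called lower. RPL36AL is a member only through the study's lists of genes that differ between the sites and between BAR years. The call is therefore no independent evidence. The FPKM of RPL36AL was 26.5, 45.3 and 103 in the lowest, median and highest sample of June 2017 and 60.3, 93.4 and 221 in June 2014 (log2 difference -1.06 ± 0.24, limma adjusted p = 0.015). The June 2017 median was below the lowest sample of June 2014. The other pairs gave 0 calls (limma), with 0 to 48 members at an unadjusted p under 0.05. The 48 are given next, beside the share of all loci.

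The largest shift of the members together was between September 2017 and June 2013. Of the 88 members 87 had negative differences, with a median log2 difference of -0.42, against -0.04 over all loci, and 48 (54.5%) had an unadjusted p under 0.05 against 10.8% of all loci. After adjustment limma called 0 members and 0% of all loci. RPL32 was at 362, 713 and 866 FPKM in the lowest, median and highest sample of September 2017 and at 604, 939 and 1531 in June 2013 (-0.58 ± 0.18, limma adjusted p = 0.31). The members' share of summed FPKM was 18.6 ± 3.43% in June 2013, 17.5 ± 2.67% in June 2014, 18.2 ± 2.93% in June 2017, 16.5 ± 3.94% in September 2017 and 17.1 ± 3.71% in July 2018 (SD, n = 12 each). The SDs exceeded every difference between these means. Red cell markers summed to medians of 36830, 32380, 42270, 23070 and 24120 FPKM in the same order, and their part was not tested.

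The members with low campaign means were not the same in each campaign, though no member passed the F test within BAR. In June 2017, 14 members had campaign means at least 0.3 below the mean of all 76 samples on the log2 scale, among them RPL38 at -0.54, RPL22, RPL36AL, RPL37, RPL39, RPS24 and RPS27, while the median member was at -0.02. In September 2017 the median member was at -0.29 and 42 were at least 0.3 below. In SAR May 2014 the median member was at 0.49 and 73 were at least 0.3 above. RPL38 had medians of 670, 648, 389, 505 and 552 FPKM in the 5 BAR campaigns in order of time. RPL22 and RPL36AL are members only through the study's lists of genes that differ between the sites and between BAR years. All these sets were chosen after the campaign means were seen and were not tested. The share of all loci past 0.3 is not given here, so the counts cannot be set against a background.

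**Figure D4:**
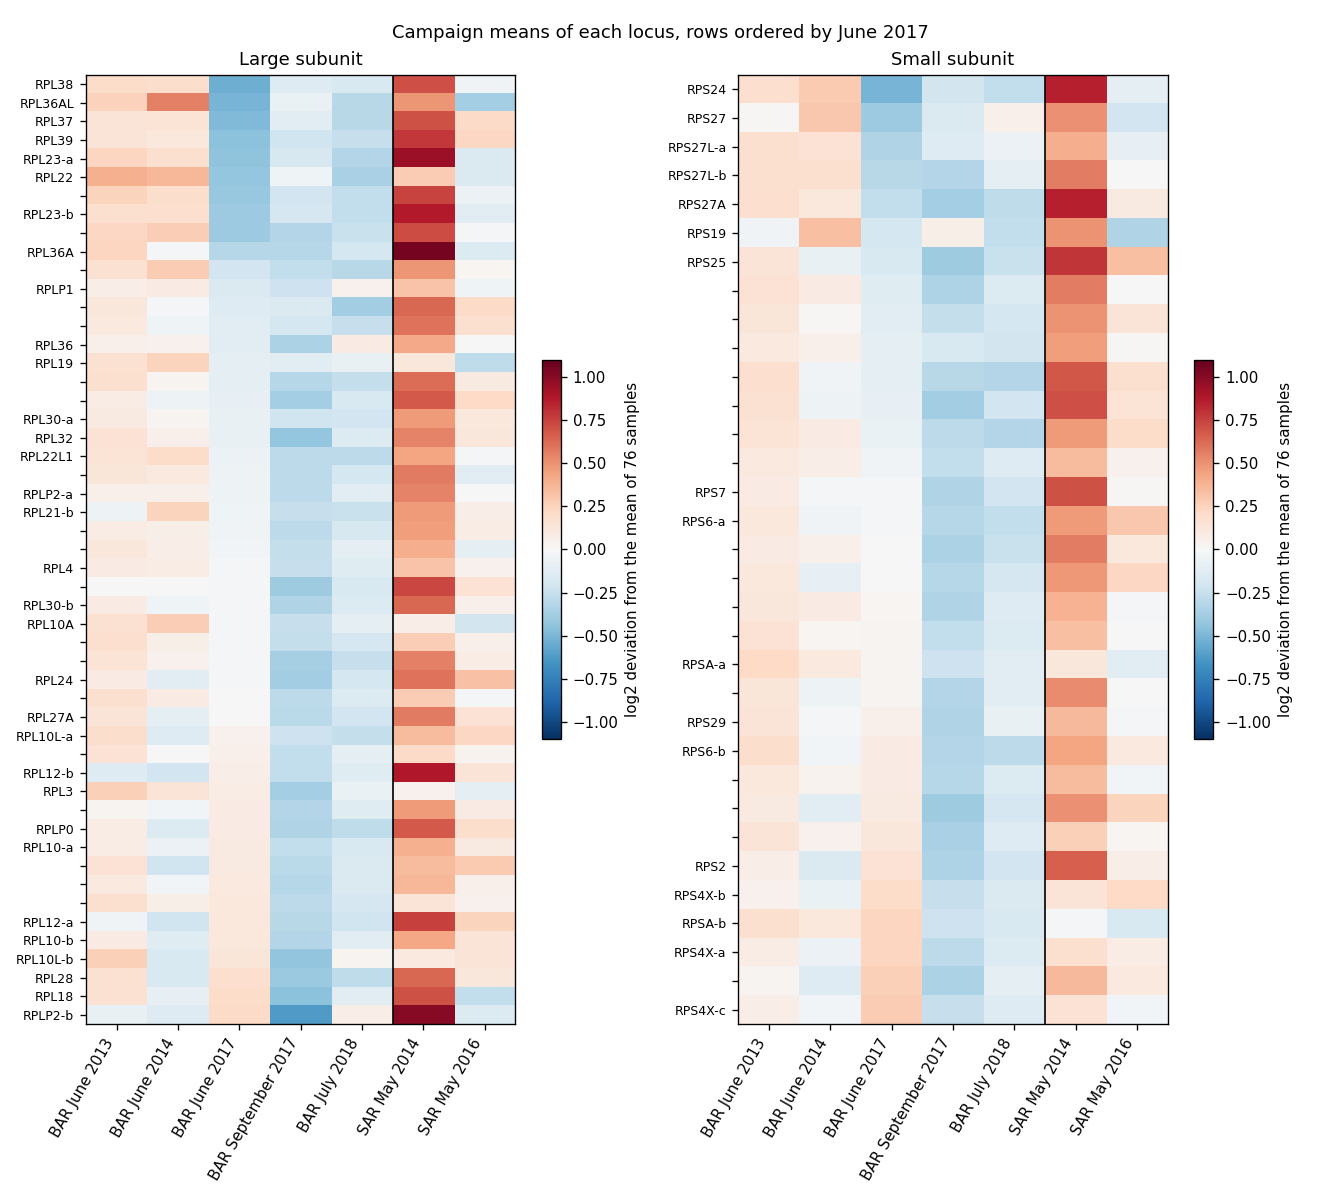
Campaign mean of each ribosomal protein locus as a log2 deviation from the mean of all 76 samples, for 84 of the 88 loci, with large subunit loci left and small subunit loci right and those named in the text labelled, ordered by the value in June 2017. Red is above and blue below the mean, and a line separates the 5 BAR campaigns from the 2 SAR campaigns. SAR May 2014 is red in nearly all rows (median 0.49) and September 2017 mostly blue (median -0.29).

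The 5 BAR animals sampled 2 times did not move in 1 direction. The members' share at the later and the earlier capture was 19.3% in June 2014 and 19.0% in June 2013 in one animal, 15.9% in September 2017 and 15.9% in June 2014 in another. A further animal had 13.9% in September 2017 and 20.3% in June 2014. The remaining pair of animals had 12.1% in July 2018 and 10.3% in September 2017, and 25.3% in July 2018 and 17.8% in September 2017. The number of members lower at the later capture was 42, 63, 87, 18 and 6 of 88 in that order.

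Adults of BAR had a lower mean share of ribosomal protein mRNA than subadults, though no member passed the test. Limma called 0 members and 0% of 11571 loci, and 30 of the 88 members had an unadjusted p under 0.05, against 14.8% of all loci. Differences were negative in 87 members, with a median log2 difference of -0.24, against 0.07 over all loci. RPL12-b, the member with the lowest p, was at 70.6, 217 and 458 FPKM in the lowest, median and highest adult and at 90.6, 321 and 727 in subadults (-0.61 ± 0.18, limma adjusted p = 0.16). The share of summed FPKM was 15.6 ± 3.57% in adults (n = 23) and 18.6 ± 2.62% in subadults (n = 33), and its mean was lower in adults in each of the 5 campaigns, of which June 2017 had 1 adult. Without the library of lowest summed FPKM, 55 members had an unadjusted p under 0.05 and still 0 passed. The share of all loci in that fit is not given here, so the 55 cannot be set against a background.

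Pre-spill animals also had a lower mean share than post-spill animals. It was 17.1 ± 3.45% in pre-spill (10.3 to 25.3%, n = 46) and 20.1 ± 1.25% in post-spill samples (18.3 to 21.5%, n = 9). Limma called 0 members, 11 (12.5%) had an unadjusted p under 0.05 against 17.4% of all loci, and 0.76% of 11585 loci were called in either direction. The median log2 difference was -0.20 over the members, 80 of them negative, and 0.06 over all loci. RPS4X-b was at 410, 855 and 1557 FPKM in the lowest, median and highest pre-spill sample and at 684, 1068 and 1413 in post-spill (-0.39 ± 0.14, limma adjusted p = 0.13). Post-spill animals were young: among subadults alone the share was 18.6% in pre-spill (n = 23) and 19.86% in post-spill samples (n = 6), and 6 of the 9 post-spill samples came from June 2017. Both cohorts were present in 4 campaigns. In June 2017 the mean share was 16.05% in pre-spill (n = 3) and 19.82% in post-spill samples (n = 6). The pre-spill means of June 2013, June 2014 and September 2017 (n = 11 each) were 18.39%, 17.16% and 16.26%, and the single post-spill samples of those campaigns were at 21.34%, 21.54% and 18.8%. With campaign as a covariate limma called 0 members and 0% of all loci, and the median log2 difference over the members was -0.29, with 85 negative.

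Between pregnant and non-pregnant females no member passed the test. Limma called 0 of 88 members and 0% of 11634 loci over 20 pregnant and 15 non-pregnant BAR females, 3 members had an unadjusted p under 0.05, and the median log2 difference was -0.05, against 0.00 over all loci. The share was 17.0 ± 3.16% in pregnant and 17.2 ± 3.51% in non-pregnant females. Between 13 failed and 5 successful pregnancies all 88 members had positive differences, with a median of 0.29, but limma called 0 members and 0% of 11636 loci, and 3 members had an unadjusted p under 0.05. The median and the share under that p over all loci are not given here, so these values cannot be set against a background. Summed FPKM averaged 1020300 in failed and 885690 in successful pregnancies. With median-ratio scaling not every member stayed positive, with RPL9 at -0.009. RPLP2-b had the lowest p of these, with 9.15, 30.2 and 85.5 FPKM in the lowest, median and highest failed pregnancy and 22.5, 6.02, 3.78, 45.9 and 2.01 FPKM in the successful ones (1.45 ± 0.55, limma adjusted p = 0.999). The members' share was 14.4 to 21.3% in failed pregnancies and 14.6%, 17.1%, 13.9%, 25.3% and 12.2% in the successful ones, so the highest and the lowest value both fell to a successful pregnancy. Leaving out each successful pregnancy in turn gave medians of 0.17 to 0.53, and without the one at 25.3%, 52 members had an unadjusted p under 0.05 and 0 passed. The share of all loci in that fit is not given here, so the 52 cannot be set against a background.

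In the values as deposited, no member passed the test for any health finding in BAR. The groups were 12 samples with and 48 without inflammation (median log2 difference over the members -0.08), 6 with and 54 without anemia (0.17), 9 with and 51 without a hepatobiliary finding (-0.11), 6 with and 54 without altered iron (-0.08), 19 with a moderate or severe and 38 with a normal or mild lung score (-0.08), and 21 with a guarded or poor and 37 with a good or fair prognosis (-0.14). Limma called 0 members in each, beside 0% of all loci in the first 5 and 0.0173% for prognosis. At an unadjusted p under 0.05 there were 1, 1, 13, 1, 2 and 11 members in the same order, beside 6.15%, 3.45%, 4.27%, 4.14%, 7.58% and 11.4% of all loci. With quantile normalization RPL10A was called for prognosis, and the share of all loci called in that fit is not given here.

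Of these, the hepatobiliary finding gave the most members under that p. RPL36AL was at 17.0, 45.7 and 63.8 FPKM in the lowest, median and highest sample with the finding and at 26.9, 65.5 and 221 without it (log2 difference -0.81 ± 0.23), and RPL37 at 556, 1125 and 2210 with it and at 741, 2199 and 6619 without it (-0.82 ± 0.24). Limma's adjusted p was 0.98 for both. Anemia was the health finding with a positive median. The share was 18.5 ± 2.85% in anemic (13.1 to 20.5%) and 17.5 ± 3.40% in other samples (10.3 to 25.3%), and the ranges overlapped.

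**Figure D5:**
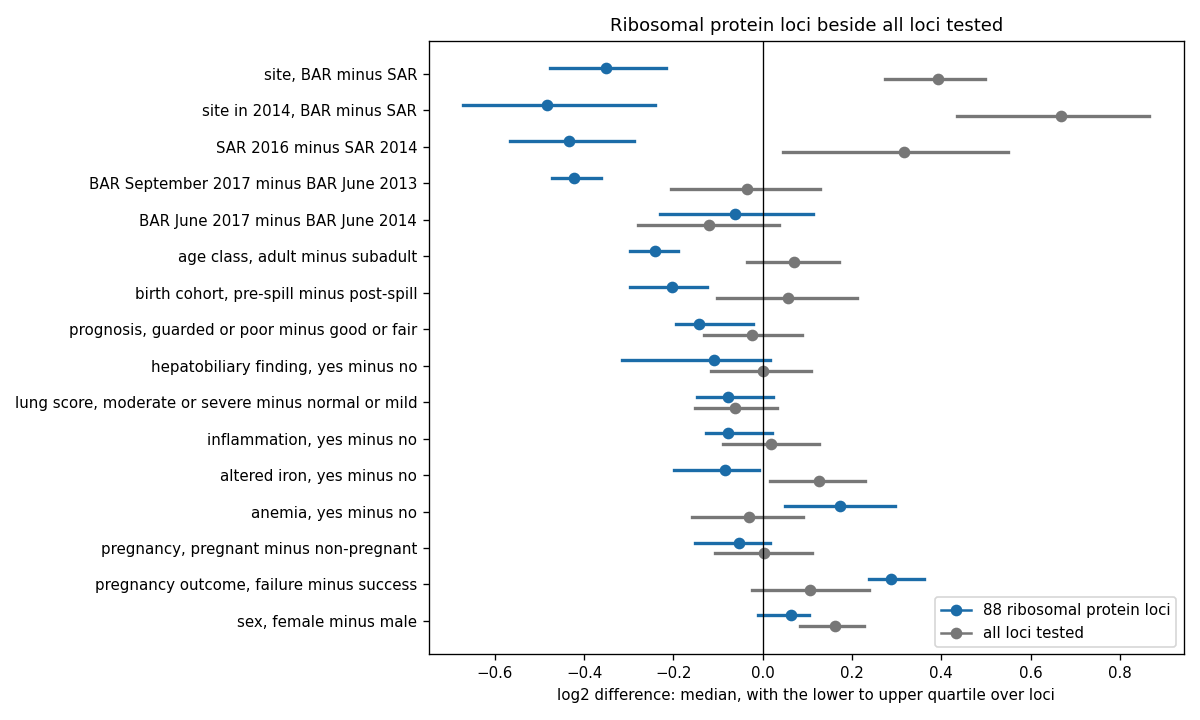
Median log2 difference over the 88 ribosomal protein loci and over all loci tested, with lines from the lower to the upper quartile over loci, for 16 comparisons. Members and all loci lie on opposite sides of 0 for site (-0.35 and 0.39) and nearer each other for most health findings.

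Members whose human genes are X-linked passed no test between the sexes in BAR. Differences are of mean log2 values, female minus male, so their sign can differ from that of the medians. The members' mean log2 level averaged 9.70 in females and 9.65 in males, with medians of 9.81 and 9.85. The library of lowest summed FPKM, at 8.42, was from a male. RPS4X-a had medians of 954 FPKM in females and 1016 in males (log2 difference 0.06 ± 0.11), RPS4X-b of 859 in females and 926 in males (0.14 ± 0.12), RPL10-a of 904 in females and 837 in males (0.26 ± 0.16), RPL36A of 64.5 in females and 63.6 in males (-0.10 ± 0.24) and RPL39 of 40.4 in females and 35.9 in males (-0.06 ± 0.21). Limma called 0 of 88 members, beside 0.276% of 11582 loci, with 0 members at an unadjusted p under 0.05. The median log2 difference of the members was 0.06 as deposited and -0.12 with median-ratio scaling. Limma's interaction term of site and sex called 0 members and 0% of loci, with 0 members at an unadjusted p under 0.05.

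Other genes of translation are given by list, beside 70.4% of all loci higher in BAR. Of 12 loci of the elongation and TOP mRNA list, 4 were lower in BAR and 0 higher, among them TPT1 (log2 difference -0.61 at its abundant locus), FAU (-0.52) and PABPC1 (-0.49), which binds poly(A) tails. EEF1A1, the factor that brings aminoacyl-tRNA to the ribosome, was at 0.11 at its abundant locus and RACK1, a scaffold on the small subunit, at -0.01, and neither passed. With median-ratio scaling all 12 were lower. Of 9 subunits of EIF3, the initiation factor that loads the small subunit, 5 were higher in BAR, among them EIF3E (0.44), and EIF3H (-0.41) and EIF3G (-0.34) were lower, while after median-ratio scaling 0 were higher and 3 lower. Of 8 other initiation factors 6 were higher, among them EIF4G2 (0.42), and EIF2S3 was lower (-0.43). After median-ratio scaling 0 of these were higher and only EIF2S3 was lower, with EIF4G2 at -0.028.

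Most ribosome assembly factors and mitochondrial ribosomal proteins were higher in BAR, as most loci were. Of 12 assembly loci 11 were higher in BAR, with MAK16 at 0.79 and NCL, the nucleolar protein nucleolin, at 0.38, and after median-ratio scaling only MAK16 was still higher (0.42). Of 10 mitochondrial ribosomal protein loci 9 were higher, with MRPS23 at 0.89, and 0 after that scaling (limma, 1 at an unadjusted p under 0.05). The cytosolic ribosomal proteins had median differences of -0.35 as deposited and -0.80 after median-ratio scaling, and the TOP mRNA list had -0.17 and -0.61.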

How the data were processed

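Whole blood RNA was extracted with a PAXgene Blood RNA Kit and made into NEBNext Ultra Directional libraries. Per the labels and the study's methods, the authors trimmed reads with Trimmomatic 0.33, checked them with FastQC (app version 0.1), masked the hemoglobin genes HBB, HBM and HBZ, mapped to Tur_tru v1 (TopHat2 2.1.1 using Bowtie2) and deposited FPKM per locus from Cufflinks 2.2.1. Here FPKM were tested as log2(FPKM + 1) with limma 3.58.1 (R 4.3.3, empirical Bayes with trend), over loci with a mean of at least 1 FPKM and expression in no fewer than 50% of the compared samples, with Benjamini-Hochberg adjustment over all of them and a threshold of 0.05. Fold changes on this scale understate the change of low genes. Cuffdiff, the study's own test, needs reads, so limma took its place. Summaries and figures used Python 3.11.15 (pandas 2.3.3, matplotlib 3.10.9). The fit was tested on simulated data.

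Sites and campaigns came from the labels, and health, age and cohort groups from the study's sample table, joined by animal and date. The members and lists were chosen with earlier results of these data known. Genes named were the 10 members past the threshold with the largest differences in each comparison, symbols with several loci, 4 paralog pairs, the 5 highest and 5 lowest members, RPSA and the stalk proteins, the human X-linked members in the comparison of the sexes, and members named only in the site list, and members named outside this rule were chosen after their values were seen. All 75 symbols were found in RefSeq's annotation of a later assembly, used for names only. Relative depth came from 1470 loci, where 94.6% of 13399 values lay within 5% of whole steps. P-values take samples as independent although 5 animals were sampled 2 times. Alternatives were a pseudocount of 0.1, no filter, median-ratio scaling, quantile normalization, June samples only, sex or campaign as covariate, 1 sample per animal and animal as a block (correlation 0.425), and, chosen after seeing the data, SAR May 2016 as the only reference and leaving out the library of lowest summed FPKM. Some members that the rule names are not reported here, though the counts and shares over all members take them in. The files held no sequence, and none was used.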

Additional observations from a re-analysis of the deposited data

Results flagged for a closer look

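In groups of 4 to 10 samples, 94 sets of values were looked at (the members' share, the ratio of large to small subunit loci, and 40 loci in the SAR campaigns). In 8 of them the highest or lowest sample stood apart by Dixon's criterion, set to flag about 1 in 20 normally distributed sets by chance. That rate need not hold here. The loci were taken as FPKM without log, share the same libraries and were partly chosen for their calls between the SAR campaigns. The ratio of large to small subunit loci was 1.024 in the highest sample with altered iron, and the next was 0.838, both from 1 animal (6 samples from 5 animals). In SAR May 2014, the highest sample was at 429 FPKM for RPL10L-b (next 126), 860 for RPL12-b (next 596), 4894 for RPS6-a (next 2851) and 62.7 for RPSA-b (next 35.7), and the lowest was at 746 FPKM for RPS4X-b (next 924). In SAR May 2016, the highest was at 301 FPKM for RPL10L-b (next 152) and 67.9 for RPLP2-b (next 23.98).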

How the results depend on the processing

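In the comparison of the sites, 50 members were lower in BAR as deposited, 81 with median-ratio scaling, 30 with quantile normalization and 29 with the BAR samples of June only. With SAR May 2016 as the only reference, chosen after seeing the data, 0 were lower, with or without median-ratio scaling, from a fit with 8 in place of 16 SAR samples. In 2014 the 46 became 82 after median-ratio scaling and 15 after quantile normalization. Between the SAR campaigns the 10 became 16 when median-ratio scaling was applied, and 0 either under quantile normalization or when low values were kept. With quantile normalization 3 members were called for birth cohort (RPL7, RPS4X-b and RPS4X-c) and 1 for prognosis (RPL10A). The share of all loci called in those 2 fits is not given here. Leaving the 10 most abundant other loci out of the sum gave the members 21.7% in BAR and 29.6% in SAR. The cause of these shifts was not tested. The other 94 values for comparisons were taken as unchanged. Counts were taken so where they were equal, often at 0, or within 1.5 times the count of the main setting. The difference between the subunits' medians was taken so where it moved by less than the SD of the libraries' log2 subunit difference.

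Of the 15 loci followed through the site comparison, RPL36A turned to 0.034 with SAR May 2016 only. RPSA-a, near 0, turned to 0.047 with quantile normalization, 0.11 with June samples or with SAR May 2016 only, 0.0036 with animal as a block, 0.0046 with 1 sample per animal and 0.017 without the library of lowest summed FPKM. With median-ratio scaling RPSA-b turned to -0.32, RPL3 to -0.41, RPL10A to -0.37 and RPL19 to -0.35. With quantile normalization RPSA-b turned to -0.26 and RPL3 to -0.074. With SAR May 2016 only and median-ratio scaling RPSA-b turned to -0.051, RPL3 to -0.14 and RPL10A to -0.037. The labels give no replicate numbers that pair samples across groups. Campaigns within BAR shared at most 2 animals in any pair of them, and in the site comparison 49 members were lower with animal as a block and 48 with 1 sample per animal. Read totals are unknown, so counting error could not be given for single values.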

Other observations

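The members' share of summed FPKM was 17.8 to 29.1% in SAR May 2014 and 14.1 to 22.7% in SAR May 2016. The 2 BAR samples with the highest ratio of large to small subunit loci, 1.04 and 1.02, came from September 2017 and June 2014. The animal with a ratio of 1.02 in June 2014 had one of 0.838 when it was sampled again in September 2017.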
